A study of Mus musculus with 4 samples.

Results

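Pyruvate and lactate cross the plasma membrane through proton-linked monocarboxylate carriers, enter mitochondria through a separate carrier in the inner membrane, and are converted into each other in the cytosol by lactate dehydrogenase. The direction of the lactate dehydrogenase reaction follows the ratio of NADH to NAD+, so that these genes join glycolysis, respiration and the exchange of lactate with the medium. In peripheral nerve, Schwann cells are known to take up glucose and to pass lactate to axons.

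The 8 genes described here were chosen by name: the plasma membrane carriers Slc16a1, Slc16a3 and Slc16a7, their helper Bsg, the mitochondrial pyruvate carrier subunits Mpc1 and Mpc2, and the lactate dehydrogenase subunits Ldha and Ldhb. Every probe carrying one of these gene names was taken, which gave 16 of the 39429 mouse probes on the array, and 8 of 31093 gene names. The cells were IMS32, a line of immortalized Schwann cells from mouse, kept for 1 h in DMEM with serum at 5 or 15 mM glucose, with 1 mM pyruvate or with 0 mM added pyruvate. The lower glucose concentration is called [Glc 5 mM/Pyr (+)] with pyruvate or, without it, [Glc 5 mM/Pyr (−)], and the higher one is called [Glc 15 mM/Pyr (+)] or, without it, [Glc 15 mM/Pyr (−)]. Where 4 values are given in a row, this is their order. Each condition was measured on 1 one-colour array, so that differences between arrays could not be checked by replicates and were not tested. IMS32 is 1 cell line, and the serum was present in all 4 media.

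A probe was called well above background where the scanner software said so on that array, and measured in a comparison where this held on both arrays. Of the 16 probes, 13 were well above background on all 4 arrays, against 27589 of 39429 for the whole array, 1 was so on 3 arrays and 2 on no array. Every level below is the log2 intensity minus that array's 75th percentile, and a difference is one such level minus another. The error given with a difference is the standard deviation expected from repeated spots within an array. It leaves out the spread between cultures, RNA extracts and labellings, which was not measured. The scanner software's own error for a difference of bright probes was larger, at 0.204. Intensities of different probes depend on the probe as well as the transcript and are not compared with each other.

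The labelled cell type was compared with marker lists. All 11 Schwann cell markers were well above background on all 4 arrays, although some, such as Erbb3 at 15.6 to 22.2, were dim. Markers of other cell types were also detected: 4 of 5 for fibroblasts, 5 of 5 for macrophages, 3 of 4 for neurons and 2 of 4 for endothelial cells, where Cdh5 was on no array above background. The sums given here are of intensities not scaled between arrays, whose 75th percentile ran from 1597.4 to 1787.7. The summed intensity of the Schwann cell list was 74800 on [Glc 15 mM/Pyr (−)] and 83980 to 93510 on the other arrays. That of the macrophage list was 3173 on [Glc 15 mM/Pyr (−)] and 2324 to 2715 on the others, mostly through Cd68, at 1817 against 969.1 to 1258. The neuron list summed to 7268 to 7597 at 15 mM and 10230 to 11420 at 5 mM glucose, the fibroblast list to 1782 to 1913 and the endothelial list to 4242 to 5715. The part of these shifts in the results below was not tested.

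The sequences show what some of the probes can and cannot separate. The array prints probes of 60 bases, and the first 30 bases of each are given 5′ to 3′, as the scanner files hold them. The pair of Slc16a3 probes lies on chr11 (mm9, + strand), at 120820023-120820082 and 120820030-120820089. The second is shifted by 7 bases and shares 53 bases with the first, so the pair reads the same stretch of transcript. The capitals mark the 7 bases that only the first probe has.
Slc16a3 probe 1: CTGGGCAgtggtctgttcaccctgagtccc
Slc16a3 probe 2: gtggtctgttcaccctgagtcccacccttt

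The Slc16a7 probes are shown because they lay far apart and gave opposite differences. Probe 1 lies at chr10:124825595-124825654 and probe 2 at chr10:124665183-124665242 (mm9, − strand). In the array's annotation probe 1 belongs to a predicted transcript only, and probe 2 to the curated one. The deposited files do not say whether a probe is exonic, coding or in a UTR.
Slc16a7 probe 1: cttccctgctggcttctgcattctttactt
Slc16a7 probe 2: ctatagacttctcgacaaggaaaggaagag

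The Mpc1 probes are shown because the array places both on chr12 (mm9, − strand, 112096296-112096355 and 112096554-112096613), while RefSeq has the Mpc1 gene on chromosome 17 and a pseudogene, Mpc1-ps, on chromosome 12. Signal from the pseudogene cannot be told apart from Mpc1 here. The Mpc2 probe has no position in the array's annotation, and RefSeq has Mpc2 on chromosome 1.
Mpc1 probe 1: cagtgataacaagtatcggtgttttccata
Mpc1 probe 2: gctgccttatcaatgctaaaccttatttgt
Mpc2 probe 1: cggatttggagatataaccaagaactcaaa

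Slc16a3 encodes MCT4, the carrier best known for lactate export from glycolytic cells, and had the widest difference with pyruvate that its probes shared. The intensity of probe 1 was 135.7 on [Glc 5 mM/Pyr (+)], 158.1 on [Glc 5 mM/Pyr (−)], 119.5 on [Glc 15 mM/Pyr (+)] and 180.1 on [Glc 15 mM/Pyr (−)]. For probe 2 the intensities were 119.2, 116.8, 100.8 and 151.2 in the same order. Both probes were highest on [Glc 15 mM/Pyr (−)] and lowest on [Glc 15 mM/Pyr (+)].

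At 15 mM glucose, the Slc16a3 difference without minus with pyruvate was 0.56 ± 0.14 (spot SD) for probe 1 and 0.55 ± 0.16 for probe 2, a mean of 0.56. This was the largest difference with pyruvate at 15 mM glucose among the 8 genes, taking the mean over measured probes. At 5 mM glucose the probes gave 0.26 and 0.01. Probes sharing 53 of 60 bases thus lay 0.25 apart at 5 mM and 0.0067 apart at 15 mM glucose. Under normexp background correction, which lowers differences of dim probes, the mean at 15 mM was 0.28. Without pyruvate, Slc16a3 was higher at 15 than at 5 mM glucose by 0.28 for probe 1 and 0.46 for probe 2, and with pyruvate the differences were -0.02 and -0.08. Under spike-in scaling the mean of both probes was 0.13 and -0.45 for these glucose differences, and for pyruvate removal -0.08 at 5 mM and 0.50 at 15 mM.

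Slc16a1 encodes MCT1, the widely expressed carrier that moves lactate and pyruvate both ways. Its probe, at chr3:104462276-104462335 (mm9, + strand), gave intensities of 118.3, 96.92, 93.53 and 96.93 on the 4 arrays in order. The [Glc 5 mM/Pyr (+)] array was the highest and the other three were close to each other. Pyruvate removal gave -0.25 ± 0.19 at 5 mM glucose, against 0.02 ± 0.19 at 15 mM. No gap between neighbouring arrays in the order of levels exceeded the spot SD of a difference.

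Slc16a7 encodes MCT2, a carrier with high affinity for pyruvate and lactate, and its probes disagreed. Probe 1 gave 105.4, 87.54, 88.83 and 129.0 in that order, highest on [Glc 15 mM/Pyr (−)]. Probe 2 gave 72.39, 89.22, 83.02 and 55.8, lowest on that array. The array that was highest for one probe was therefore lowest for the other.

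For pyruvate removal at 15 mM glucose, Slc16a7 probe 1 differed by 0.51 ± 0.19 and probe 2 by -0.60 ± 0.21. At 5 mM glucose the values were -0.23 and 0.34, again of opposite sign. The gene mean, -0.05 at 15 mM and 0.17 at 5 mM, describes neither probe. Taking the brightest probe alone moved the mean at 15 mM to 0.51.

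The remaining Slc16a7 probes were dimmer. Probe 3 gave 21.86, 27.9 and 21.22 on the arrays other than [Glc 15 mM/Pyr (+)], where it was not well above background at 5.37. A probe below background on one array has only a bound, set against the higher of its own level there and the lowest level well above background on that array. By this bound probe 3 was at least 1.98-fold higher on [Glc 15 mM/Pyr (−)] than on [Glc 15 mM/Pyr (+)], and at least 1.86-fold higher on [Glc 5 mM/Pyr (+)] than on [Glc 15 mM/Pyr (+)]. Probes 4 and 5 were not well above background on any array.

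Bsg encodes basigin, the membrane glycoprotein that carries MCT1 and MCT4 to the cell surface. Its probe, at chr10:79173390-79173449 (mm9, + strand), gave 8147, 7630, 8436 and 8363 in the same order. Both arrays at 15 mM glucose were above both at 5 mM after scaling to the 75th percentile, which spike-in scaling did not keep. The pyruvate differences, -0.06 at 5 mM and -0.04 at 15 mM glucose, were smaller than the spot SD of 0.08. The glucose differences were 0.21 with pyruvate and 0.22 without, but became -0.19 and -0.02 when the arrays were scaled to the spike-in controls.

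**Figure D1:**
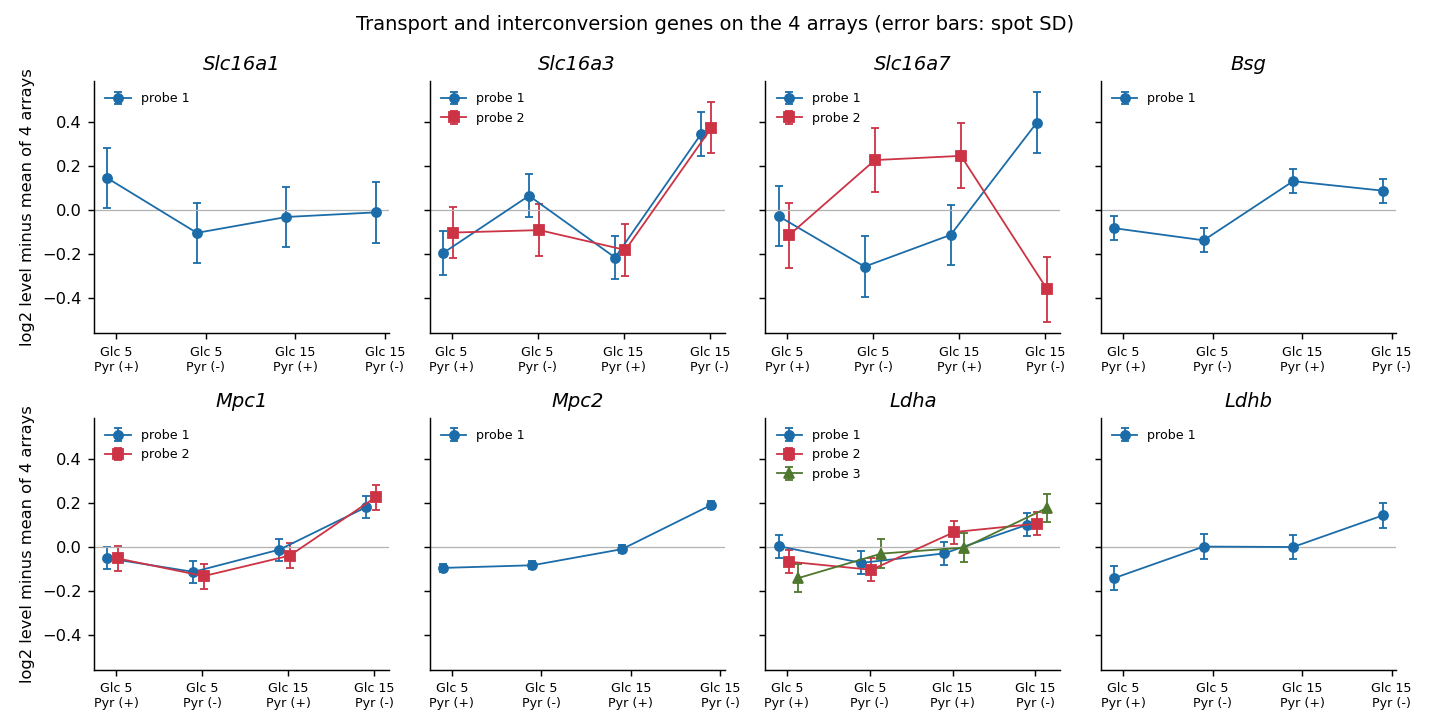
Levels of the 13 probes measured on all 4 arrays, as log2 level minus the probe's own mean over the 4 arrays (glucose in mM, 1 array per condition). Error bars are 1 spot SD, which for Mpc2 is divided by the square root of its 10 spots. Both Slc16a3 probes are highest on [Glc 15 mM/Pyr (−)], where the Slc16a7 probes part. Mpc1, Mpc2, Ldha and Ldhb are also highest there, with smaller differences. Under spike-in scaling these 4 genes are highest on [Glc 5 mM/Pyr (+)] instead, as is Ldha probe 1 under quantile normalization and cyclic loess. Ldha probe 2 is highest on [Glc 15 mM/Pyr (+)] under quantile normalization.

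Mpc1 and Mpc2 encode the subunits of the mitochondrial pyruvate carrier, which they form together. Mpc1 probe 1 gave 21830, 20350, 20030 and 23370. Mpc1 probe 2 gave 12320, 11340, 11100 and 13620. After scaling to the 75th percentile, both were highest on [Glc 15 mM/Pyr (−)] and lowest on [Glc 5 mM/Pyr (−)].

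For pyruvate removal at 15 mM glucose, Mpc1 differed by 0.19 ± 0.07 (probe 1) and 0.26 ± 0.08 (probe 2), a mean of 0.23. At 5 mM glucose the same probes gave -0.06 and -0.08, each at about 1 spot SD, and their mean was -0.28 under spike-in scaling. Without pyruvate the mean glucose difference was 0.32, and with pyruvate 0.03. Under spike-in scaling these glucose differences were 0.08 and -0.38, so that both probes were highest on [Glc 5 mM/Pyr (+)].

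Mpc2 is the member measured with the smallest spot error, since its probe was printed 10 times on each array. Its mean intensity was 13150 on [Glc 5 mM/Pyr (+)], 12910 on [Glc 5 mM/Pyr (−)], 12460 on [Glc 15 mM/Pyr (+)] and 14640 on [Glc 15 mM/Pyr (−)]. After scaling, the level was 2.88 ± 0.04 (SD, 9 spots), 2.89 ± 0.04 (9 spots), 2.96 ± 0.06 (10 spots) and 3.17 ± 0.04 (9 spots). On this scale the lowest spot on [Glc 15 mM/Pyr (−)], at 3.11, lay above the highest spot of the other 3 arrays, at 3.05.

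Pyruvate removal gave 0.20 ± 0.02 for Mpc2 at 15 mM glucose, but 0.01 ± 0.02 at 5 mM. At 15 mM it stayed between 0.15 and 0.20 over the scalings tried, while the value at 5 mM became -0.20 under spike-in scaling. Spots on one array share their RNA, label and scan, so this separation is between arrays and not between cultures. The pyruvate differences of the subunits at 15 mM glucose were 0.23 for Mpc1 and 0.20 for Mpc2, and 0.17 and 0.15 under spike-in scaling.

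**Figure D2:**
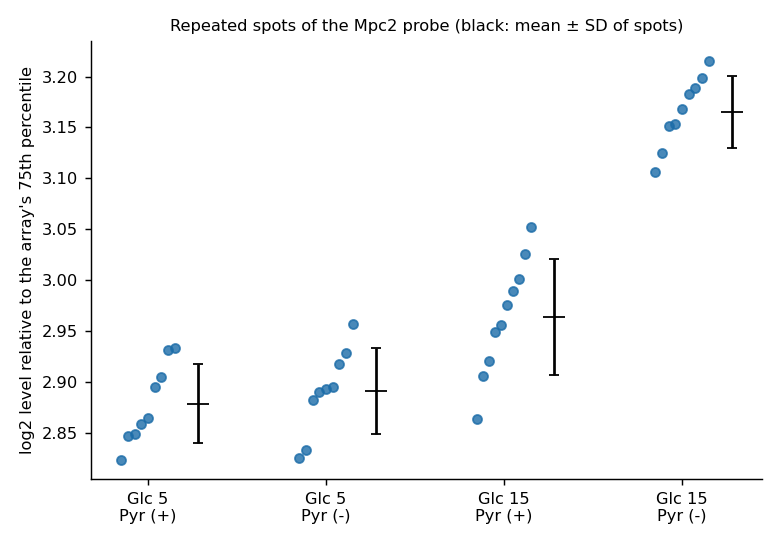
Log2 level of each spot of the Mpc2 probe relative to the array's 75th percentile, in 4 columns, 1 per array (glucose in mM), with spots placed in order of value and black bars giving the mean ± SD of 9 or 10 spots. The spots on [Glc 15 mM/Pyr (−)], from 3.11 to 3.22, lie above all spots of the other arrays, while under spike-in scaling the mean on [Glc 5 mM/Pyr (+)] is the highest.

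Ldha encodes the muscle-type subunit of lactate dehydrogenase, known for favouring lactate formation. Its probes lie along chr7 (mm9, + strand), probe 1 at 54110937-54110996, probe 2 at 54107294-54107353 and probe 3 at 54103010-54103069. Probe 1 gave 157900, 145700, 137800 and 154100. Probe 2 gave 19750, 18740, 19370 and 20310, and probe 3 gave 3558, 3739, 3499 and 4048. No spot was saturated on any array.

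After scaling to the 75th percentile, all 3 Ldha probes were highest on [Glc 15 mM/Pyr (−)], but on [Glc 5 mM/Pyr (+)] under spike-in scaling. Probe 1 was highest on [Glc 5 mM/Pyr (+)] under quantile normalization and cyclic loess too. Probe 2 was highest on [Glc 15 mM/Pyr (+)] under quantile normalization. The pyruvate differences at 15 mM glucose were 0.13, 0.04 and 0.18 for probes 1, 2 and 3, with spot SDs of 0.07, 0.07 and 0.09. At 5 mM glucose they were -0.08, -0.04 and 0.11, so that the gene mean was 0.00, and -0.21 under spike-in scaling. The probes thus differed among themselves by as much as the conditions did. RefSeq lists pseudogenes of Ldha under the names Ldha-ps, Ldha-ps2 and Ldha-ps3, and their signal was not separated.

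Ldhb encodes the heart-type subunit, known for favouring the conversion of lactate to pyruvate. Its probe, at chr6:142438770-142438829 (mm9, − strand), gave 9068, 9746, 8939 and 10080 in the same order. Pyruvate removal gave 0.14 ± 0.08 at 5 mM and again 0.14 ± 0.08 at 15 mM glucose. The glucose differences were 0.14 with and 0.14 without pyruvate, and -0.26 and -0.10 under spike-in scaling, which also turned the pyruvate difference at 5 mM to -0.07. Ldhb was the member with the most even differences: its levels on [Glc 5 mM/Pyr (−)] and on [Glc 15 mM/Pyr (+)] differed by 0.0016 only.

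The 2-fold threshold was passed by none of the measured member probes in any comparison. For pyruvate removal this was 0 of 14 at 5 mM glucose, where 1.17% of all measured probes passed, and 0 of 13 at 15 mM, where 2.1% passed. For glucose it was 0 of 13 with pyruvate, where 0.968% passed, and 0 of 14 without pyruvate, where 2.4% passed.

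At a lower threshold of 1.3-fold, 1 of 14 member probes passed for pyruvate removal at 5 mM glucose, Slc16a7 probe 3, against 7.34% of all measured probes. At 15 mM glucose 4 of 13 passed, both Slc16a3 probes and Slc16a7 probes 1 and 2, the last with a lower value without pyruvate, against 13.7% of all. The Slc16a3 probes overlap and count as 1 measurement. For glucose 0 of 13 passed with pyruvate, against 8.35%, and 3 of 14 without, Slc16a3 probe 2 and Slc16a7 probes 1 and 2, against 15.5%.

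Dim probes passed 1.3-fold more often than bright ones. When those 27589 probes that passed on every array were split by brightness into 3 equal classes, the 8 probes of Bsg, Mpc1, Mpc2, Ldha and Ldhb fell in the brightest class, where 0.402% of all probes passed 1.3-fold for pyruvate removal at 5 mM glucose and 3.12% at 15 mM, with 0 of the 8 in either. In the dimmest class, which held 4 member probes, all of Slc16a carriers, 15.4% and 25.6% of all probes passed, and 0 and 3 of these 4 members. Slc16a3 probe 1, in the middle class, did not pass at 5 mM and passed at 15 mM, against 1.84% and 11.46% of all probes there.

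Each member probe was also placed among the probes of like brightness, in 30 bins of about 920 probes. At 15 mM glucose, 97.7% of the probes in its bin lay below Slc16a3 probe 1, and 96.2% below probe 2. For Mpc1 the shares were 90.6% and 96.4%, and for Mpc2 89.5%. Slc16a7 stood at both ends, with 94.6% below probe 1 and 5.33% below probe 2. Of the 13 member probes, 12 lay within the middle 95% of their bins at 15 mM and 13 at 5 mM, and 3 and 4 within the middle 50%.

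**Figure D3:**
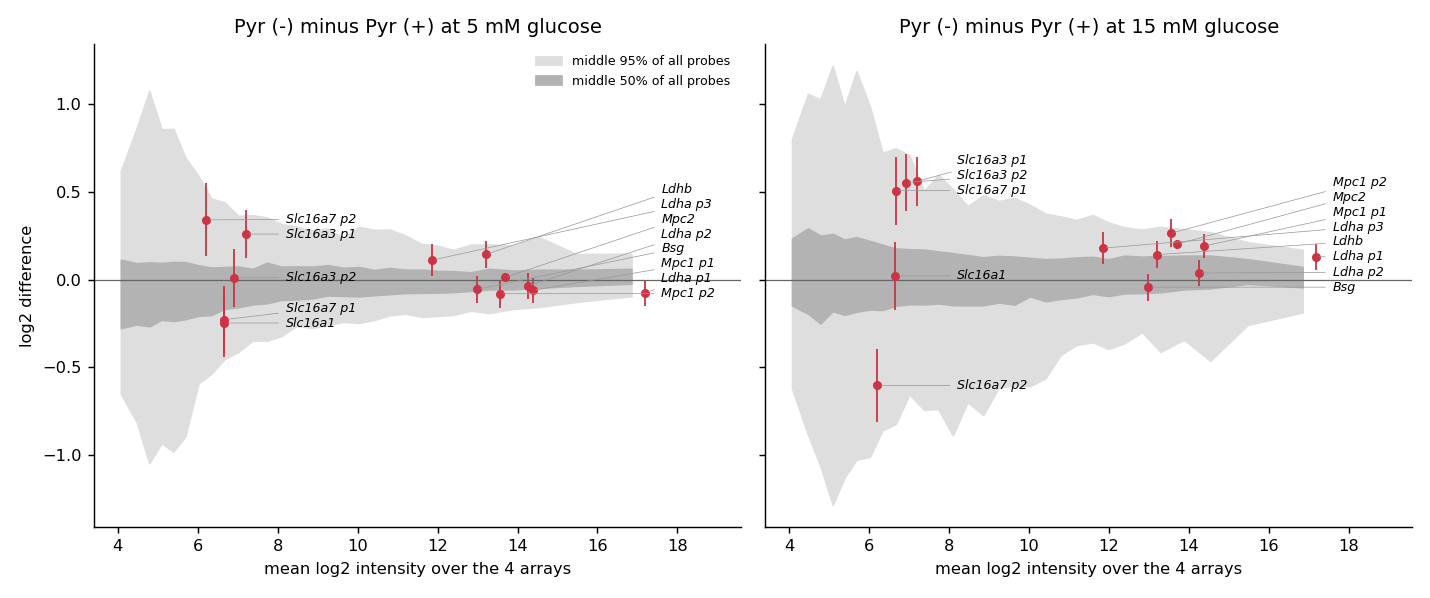
Log2 difference Pyr (−) minus Pyr (+) against mean log2 intensity over the 4 arrays, at 5 mM (left) and 15 mM glucose (right). Red points are the 13 member probes (p, probe number) with the spot SD of the difference, and the grey bands hold the middle 95% and 50% of all probes of that brightness: at 15 mM 12 of 13 member probes lie inside the wide band.

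The median over the 8 genes was 0.01 for pyruvate removal at 5 mM glucose and 0.13 at 15 mM. The medians over all measured probes were -0.02 and 0.03. For glucose the member medians were 0.08 with pyruvate and 0.21 without, beside -0.02 and 0.03 for all probes. Under spike-in scaling, which shifted all probes, 3 of the 4 member medians were below 0: -0.21 for pyruvate removal at 5 mM, -0.32 for glucose with pyruvate added and -0.033 with none added.

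The number of genes above 0 was 4 of 8 for pyruvate removal at 5 mM glucose and 6 of 8 at 15 mM, where 44.5% and 56.0% of all measured probes were above 0. It was 6 of 8 for glucose with pyruvate and 7 of 8 without, against 45.8% and 55.8%. Of the 13 member probes on all 4 arrays, 10 had their highest level on [Glc 15 mM/Pyr (−)], as did 38.0% of all such probes. The exceptions were Slc16a1, Bsg and Slc16a7 probe 2. The count was 8 to 10 under every other scaling but that to the spike-in controls. It was lower under quantile normalization (8) and cyclic loess (9), through Ldha probes. Under spike-in scaling 2 of 13, both Slc16a3 probes, were highest on [Glc 15 mM/Pyr (−)]. They overlap, and their margins over [Glc 5 mM/Pyr (+)], 0.08 and 0.02, were below the spot SDs of 0.14 and 0.16. Under the same scaling 10 member probes were highest on [Glc 5 mM/Pyr (+)], as were 90.1% of all probes.

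An additive model of pyruvate and glucose left 1 residual degree of freedom and counted as error whatever part of one effect varied with the other. limma with this model and Benjamini-Hochberg adjustment over 31274 probes called 0 (0%) for pyruvate and 0 (0%) for glucose, while 1077 and 1495 probes had an unadjusted p under 0.05. In this setting none of the 14 member probes in the fit was among them for either effect. The lowest unadjusted p of a member in limma was for Slc16a3 probe 1 with pyruvate removal, 0.0605 (effect 0.41, SE 0.13), and its adjusted p was 0.985. Under some other settings, such as quantile normalization and cyclic loess, a member probe had an unadjusted limma p under 0.05, and none was called after adjustment. A count of 0 from this fit does not show that levels were equal.

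**Figure D4:**
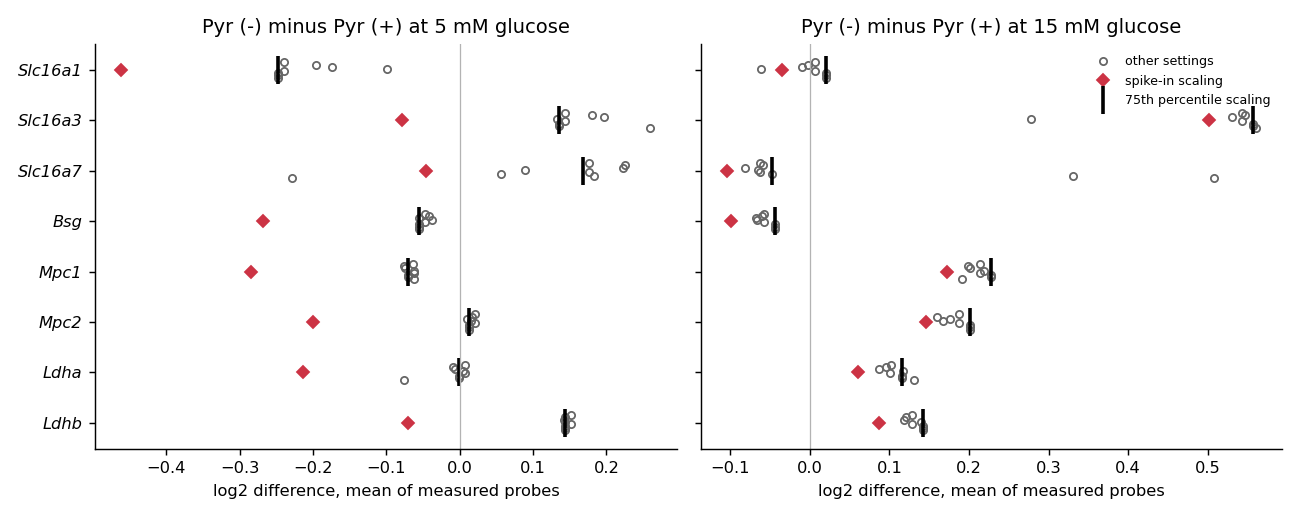
Log2 difference Pyr (−) minus Pyr (+) for each gene, averaged over its measured probes, at 5 mM (left) and 15 mM glucose (right). Black ticks use the 75th percentile, red diamonds the spike-in controls and open circles the other settings: at 15 mM Slc16a3, Mpc1, Mpc2, Ldha and Ldhb stay above 0 and Bsg below 0 in all of them, while Slc16a1 and Slc16a7 change sign between settings.

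Other genes of the pathway came from a list of 37 names, of which 36 were on the array. They were the other monocarboxylate carriers, the other lactate dehydrogenases, and enzymes that form or use pyruvate. Their medians were -0.02 and 0.01 for pyruvate removal at 5 and 15 mM glucose, over 32 measured genes each. The glucose medians were -0.06 with pyruvate, over 33 genes, and -0.005 without, over 32. Emb, the helper protein of MCT2, was not well above background on any array.

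Past 2-fold by the mean over a gene's measured probes were Pdk4 and Slc5a12, and Ldhc by a bound. All are dim. Under normexp background correction 0 measured probes of the list passed 2-fold in any comparison. Its offset of 50 lowers differences of probes this dim, so this count cannot tell whether they differed. Pdk4, a kinase that inhibits the pyruvate dehydrogenase complex, was at 12.7 with and 75.55 without pyruvate at 5 mM glucose, a difference of 2.61. At 15 mM its signal with pyruvate, 11.86, was not well above background, and the signal without, 77.12, was at least 6.36-fold higher. Slc5a12, a sodium-coupled lactate transporter, was at 56.29, 90.0, 79.45 and 30.1 in the array order used above, with pyruvate differences of 0.72 at 5 mM and -1.43 at 15 mM, and glucose differences of 0.66 with pyruvate and -1.49 without. It had the largest difference in each comparison among listed genes well above background on all 4 arrays.

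Ldhc, the lactate dehydrogenase subunit known from testis, was well above background on 1 array only with one probe, at 82.05 on [Glc 15 mM/Pyr (−)] against 2.34 on [Glc 15 mM/Pyr (+)], at least 7.66-fold. The other Ldhc probe did not share this, at 10.32 and 11.47 on the same arrays.

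The member whose brightest probe had the widest range was Slc16a7, with probe 1 spanning 0.65. The probes of other genes with the most similar pattern over the 4 arrays, by root mean square distance of centred log2 levels among 21189 probes, were 1700086O06Rik (0.0161), Ntrk3 (0.0161), Gm30836 (0.0272), Acbd7 (0.0323) and Upp1 (0.0364). With 4 arrays, near matches are frequent among so many probes, and all of these were dim, at 15.9 to 81.2.

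RefSeq promoters (GRCm38.p6) were given for 6 of the 8 genes. The 250 bases before the annotated start are printed for Slc16a3, which had the widest shared difference, for the carrier subunits Mpc1 and Mpc2, which were both highest on the same array, all by 75th percentile scaling, and for Ldha, chosen after the matches were seen, since this promoter holds E-boxes. RefSeq has a second promoter for Mpc1 and for Ldha, which are not printed, and the first is shown. Capitals mark 3 motifs on either strand: ACGTG, the core of the hypoxia response element, which the E-box CACGTG contains, GGGCGG, the GC box, and CCAAT, the CCAAT box.
Slc16a3, chr11:120948817-120949066 (+ strand): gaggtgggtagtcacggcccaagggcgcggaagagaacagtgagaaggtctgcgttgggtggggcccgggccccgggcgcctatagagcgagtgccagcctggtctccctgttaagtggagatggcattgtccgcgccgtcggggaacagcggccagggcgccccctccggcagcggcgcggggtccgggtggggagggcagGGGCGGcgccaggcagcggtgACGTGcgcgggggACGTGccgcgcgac
Mpc1, chr17:8283537-8283786 (+ strand): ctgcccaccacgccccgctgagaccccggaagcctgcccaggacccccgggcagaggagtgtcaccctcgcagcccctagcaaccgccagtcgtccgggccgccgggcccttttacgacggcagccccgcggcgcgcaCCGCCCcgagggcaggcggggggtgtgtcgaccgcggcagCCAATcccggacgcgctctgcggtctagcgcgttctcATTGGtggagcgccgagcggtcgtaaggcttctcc
Mpc2, chr1:165461010-165461259 (+ strand): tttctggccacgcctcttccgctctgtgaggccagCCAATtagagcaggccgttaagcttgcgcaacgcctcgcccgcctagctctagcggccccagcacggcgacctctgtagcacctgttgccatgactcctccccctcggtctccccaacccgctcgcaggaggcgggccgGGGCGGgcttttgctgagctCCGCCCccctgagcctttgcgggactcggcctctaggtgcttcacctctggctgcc
Ldha, chr7:46845554-46845803 (+ strand): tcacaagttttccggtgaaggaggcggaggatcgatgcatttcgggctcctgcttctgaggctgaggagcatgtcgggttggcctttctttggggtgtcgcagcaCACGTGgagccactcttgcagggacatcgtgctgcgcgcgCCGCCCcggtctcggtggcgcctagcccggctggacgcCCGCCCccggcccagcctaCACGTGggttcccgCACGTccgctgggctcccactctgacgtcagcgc

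The Slc16a3 window held ACGTG 2 times and GGGCGG 1 time. The Mpc1 window held CCAAT 2 times and GGGCGG 1 time, and the Mpc2 window CCAAT 1 time and GGGCGG 2 times. The Ldha window held CACGTG 2 times, whereas the second Ldha promoter held 0 matches to any of these motifs and the second Mpc1 promoter only 1, to GGGCGG. Slc16a1 also held CACGTG, 1 time. Over all 32851 promoter windows of this length, 16.6% held ACGTG, 6.02% CACGTG, 32.7% GGGCGG and 33.8% CCAAT. These shares are not matched for base composition: the printed windows held 67.2% to 73.6% G and C, against a median of 52.4% over all. These matches describe the letters only, and nothing was measured at the promoters.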

How the data were processed

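Gene expression was measured on 4 one-colour Agilent arrays, 1 per condition. Per the file headers, the deposited scanner files hold a background-corrected intensity per spot from Feature Extraction 11.5.1.1, with no scaling between arrays. The deposited table of processed values equals this intensity as a ratio to a constant per array (1930.2, 1867.39, 1718.5 and 1773.36). GeneSpring settings are not given in the sources used here. Control and outlier spots (166 to 183 per array) were removed, spots of a probe averaged, and log2 intensity taken relative to the array's 75th percentile (1597.4 to 1787.7). Between 28470 and 30344 probes per array were well above background.

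Differences between single arrays were not tested. The additive model used limma 3.58.1 (R 4.3.3), the rest Python 3.11.15, numpy 2.4.6 and pandas 2.3.3. The fit was also run on simulated data whose pyruvate effect did not depend on glucose, as a check of the code only. The members, lists and tests were chosen with earlier results of these data known. Named genes are the 8 members, listed pathway genes past 2-fold or with the largest difference, and the 5 nearest patterns. Symbols are those of the array, and 22593 of 31093 names were found in RefSeq. The number of arrays limits the precision. Alternatives were other scalings (75th percentile over detected probes, quantile, cyclic loess, 8 of 10 spike-in probes), normexp with offset 50, the deposited values, filters on dim probes, the brightest probe and an intensity trend in limma. Marker counts and sums include genes whose own values are not reported here.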

Additional observations from a re-analysis of the deposited data

Results flagged for a closer look

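The sign of the pyruvate difference was opposite at 5 and 15 mM glucose for 4 genes. Each condition had 1 array, so the difference between the glucose concentrations was not tested. Of all measured probes, 44.48% were above 0 for pyruvate removal at 5 mM glucose and 55.95% at 15 mM. The share of all probes with opposite signs was not counted, so the 4 genes cannot be set against it. The difference between the glucose concentrations was 0.27 for Slc16a1 (15 mM minus 5 mM), 0.30 for Mpc1, 0.12 for Ldha and -0.22 for Slc16a7. The Slc16a7 value sets 3 probes at 5 mM against 2 at 15 mM, and on the 2 probes measured on all arrays it was -0.10. For Slc16a1 the value at 15 mM and for Ldha the value at 5 mM lay within the spot SD of 0, and for Slc16a7 the probes gave opposite signs at both concentrations. For Mpc1 both probes had the same signs, -0.06 and -0.08 at 5 mM and 0.19 and 0.26 at 15 mM. The Mpc1 values at 5 mM also lay within the spot SD of 0, and signal from the pseudogene was not separated. For Mpc1 the signs were opposite under every setting tried on these same 4 arrays. Under spike-in scaling they were the same for Slc16a1 and Slc16a7 and opposite for Slc16a3 (-0.08 and 0.50), Mpc2 (-0.20 and 0.15) and Ldhb (-0.07 and 0.09). For Slc16a1 they were also the same under quantile, cyclic loess and normexp, where the difference was 0.19, 0.16 and 0.04.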

How the results depend on the processing

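Of 288 recalculated gene differences, 247 moved by less than the spot SD and 41 by more, 23 of them under spike-in scaling. That scaling shifted the median of all measured probes by -0.21 for pyruvate removal at 5 mM glucose, -0.06 at 15 mM, -0.40 for glucose with pyruvate and -0.24 without. Member medians became -0.21 (pyruvate, 5 mM), -0.32 (glucose with pyruvate) and -0.033 (glucose without), which lay 0.02, 0.10 and 0.18 above those of all probes, and pathway list medians -0.23, -0.46 and -0.25. Counts of member probes past 1.3-fold moved for pyruvate removal at 5 mM glucose to 2 under quantile, cyclic loess and spike-in scaling and to 0 under normexp or with probes on all 4 arrays. At 15 mM the count was 1 under normexp. For glucose with pyruvate it was 1 under quantile and cyclic loess, 6 under spike-in scaling and 2 with no filter on dim probes, and without pyruvate 1 under normexp. Past 2-fold, with no filter, 1 probe passed for glucose with pyruvate and 1 for pyruvate removal at 15 mM. In limma the additive fit called 13 probes for pyruvate and 28 for glucose under spike-in scaling and 2 for pyruvate under normexp, none of them members. The cause was not tested. No paired analysis was possible because each condition has 1 array. With any array left out the additive fit has 0 residual degrees of freedom, so no such value is given.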
